A study of Mus musculus with 9 samples.

Results

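The Notch genes described here are the receptors *Notch1*, *Notch2* and *Notch3*, the ligands *Jag1* and *Dll1*, the nuclear effector *Rbpj*, and the targets *Hes1*, *Hes5*, *Hey1* and *Heyl*. They were chosen by name, and each of the 10 symbols had 1 row among the 47729 genes of the expression tables. RNA-Seq of polyadenylated RNA was performed on whole lenses of newborn mice from 3 lines on the *FVB/N* background. A line had 3 pools, and the 6 lenses of a pool came from 3 mice. The *FVB/N* mice were wild type. The *P0-3.9GFPCre* mice were hemizygous for a transgene that encodes a fusion of GFP and CRE recombinase. The *Le-Cre* mice were hemizygous for a transgene that encodes CRE, with GFP translated from an internal ribosome entry site, and the line in use descends from 1 founder. A fragment of the mouse *Pax6* P0 promoter with its ectodermal enhancer drives both transgenes, which act in the lens placode and the surrounding surface ectoderm and later in the lens epithelium. No floxed allele was named for any of the mice, and wild-type mice without CRE were the controls. Each pool mixed epithelium and fibre cells of the whole lens, so a lower value can mean fewer cells of a type or less RNA per cell, and these cannot be told apart.

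Notch signalling passes between touching cells. A ligand on one cell binds a Notch receptor on its neighbour, the receptor is cut first at the cell surface by an ADAM protease and then within the membrane by gamma-secretase, and the freed intracellular part joins RBPJ in the nucleus to switch on genes such as those of the HES and HEY families of transcriptional repressors. In the lens, *Jag1* made by differentiating fibre cells signals to receptors on the epithelial cells above them, and loss of *Jag1*, *Notch2* or *Rbpj* is known to deplete the epithelium early and to leave a small lens. The comparisons of the lines ask whether hemizygous carriage of either CRE transgene is accompanied by a difference in these genes in the absence of any floxed target.

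Upstream sequences are shown for *Notch2* and *Notch3*, the receptors whose lowest line means were in *Le-Cre* lenses, and for *Hes5*, whose window held the RBPJ core motif on both strands. RefSeq windows on GRCm38.p6 were found for 7 of the 10 genes, and *Hes1*, *Hey1* and *Heyl* were not among them. Each line gives the 250 bases before the annotated start, read 5′ to 3′ on the strand of the gene, and capitals mark TGGGAA or its reverse complement TTCCCA, the core motif bound by RBPJ.
Hes5: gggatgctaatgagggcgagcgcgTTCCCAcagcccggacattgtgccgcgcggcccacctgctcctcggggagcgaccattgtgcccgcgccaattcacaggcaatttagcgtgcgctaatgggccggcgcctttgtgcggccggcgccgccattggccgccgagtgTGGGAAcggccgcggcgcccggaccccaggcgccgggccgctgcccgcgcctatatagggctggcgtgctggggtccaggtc
Notch2: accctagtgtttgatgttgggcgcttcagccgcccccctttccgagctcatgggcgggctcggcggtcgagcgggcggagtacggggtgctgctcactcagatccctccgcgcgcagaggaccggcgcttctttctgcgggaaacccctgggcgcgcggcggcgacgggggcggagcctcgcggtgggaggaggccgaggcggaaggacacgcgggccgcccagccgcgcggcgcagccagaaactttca
Notch3: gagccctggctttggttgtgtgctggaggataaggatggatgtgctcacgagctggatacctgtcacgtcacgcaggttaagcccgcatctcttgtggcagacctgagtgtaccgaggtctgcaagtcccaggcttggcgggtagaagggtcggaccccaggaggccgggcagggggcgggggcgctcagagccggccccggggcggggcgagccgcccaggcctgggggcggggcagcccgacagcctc
The *Hes5* window is chr4:154960673-154960922 on the plus strand, directly before the first base of the gene in GENCODE M21. The *Notch2* window is chr3:98013288-98013537 on the plus strand and ends inside the first 11 bases of the gene, and the *Notch3* window is chr17:32166891-32167140 on the minus strand and lies outside the gene. *Hes5* had 2 matches, TTCCCA at 226 to 221 bases and TGGGAA at 82 to 77 bases before the start, whereas *Notch2* and *Notch3* had 0. Of all 32851 mouse windows of the same length, 21.6% held at least 1 match and 2.77% held 2 or more, so a match is common by itself. Of the other genes with a window, *Rbpj* had 2 matches in one of its windows, also 1 on each strand. Its other window overlaps that one and holds 1 of the same sites, and *Notch1*, *Jag1* and *Dll1* had 0. The motif CACGCG and its reverse complement CGCGTG, a site bound by HES and HEY proteins, occurred in 7.62% of all windows, 2 times in that of *Jag1*, 1 time in that of *Notch2*, 1 time in one of the *Dll1* windows and 0 times in those of *Notch3* and *Hes5*. The windows of *Notch1* and *Rbpj* and the *Dll1* window without a match lay wholly inside the gene in GENCODE M21. That of *Jag1* did so for 124 of its 250 bases. All these matches are letters in a window, and no binding was measured. The windows of *Hes5*, *Notch2* and *Notch3* were rich in G and C, at 71.6%, 72.0% and 68.8%.

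The depth was similar in all lines, at 20670968 to 28098059 expected counts per pool, of which crystallin genes took 39.1% to 43.0%. Levels within a gene are given as normalized CPM, the count scaled to the TMM-normalized library size, and levels of different genes are compared as TPM, which also divides by transcript length. Lens fibre markers such as *Mip* and *Bfsp1* were at 7748 to 9124 and 4419 to 4947 CPM. Lens epithelium markers were present, with *Pax6* at 125 to 143 CPM and *Cdh1* at 123 to 152 CPM. Of 4 keratin genes of cornea and surface epithelium, *Krt12* and *Krt14* had 0 counts in all 9 pools. *Krt5* and *Krt15* reached at most 0.0905 and 0.246 CPM in any pool. Markers of vessels were detected, and the summed CPM of 6 endothelial genes was 95.1 to 109 in *FVB/N*, 63.4 to 107 in *P0-3.9GFPCre* and 87.6 to 109 in *Le-Cre* pools. *Pecam1* was the largest part of that sum, and its members did not move together. *FVB/N* replicate 3 had the highest *Pecam1* of the 9 pools, at 64.3 CPM, and the lowest *Cldn5*, at 6.63 CPM. The 5 macrophage genes summed to 1.02 to 3.50 CPM in all pools, and 5 erythroid genes summed to 45.0 to 88.9 CPM in *FVB/N*, 41.7 to 68.9 in *P0-3.9GFPCre* and 45.3 to 120 in *Le-Cre* pools. The summed CPM of 4 Y-linked genes was 126 to 194 in *FVB/N*, 1.66 to 135 in *P0-3.9GFPCre* and 0.633 to 71.9 in *Le-Cre* pools. The *FVB/N* range overlapped that of *P0-3.9GFPCre* but lay wholly above that of *Le-Cre*. The sex of the mice is not given in the sources used here. A difference of *Le-Cre* from *FVB/N* thus cannot be fully told apart from this Y-linked share.

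*Jag1* was the most abundant of the 10 genes by a wide margin. Its TPM was 105 to 143 over the 9 pools with a mean of 129, which placed it at rank 516 of the 15557 tested genes, above 96.7% of them. The ligand made up 96.9% to 98.0% of the summed TPM of *Jag1*, *Jag2*, *Dll1*, *Dll3* and *Dll4* in each pool. Its TPM was 5.74 to 9.69 times the summed TPM of the receptors *Notch1* to *Notch4*. The next in order were the targets *Hey1*, with a mean TPM of 18.1, and *Hes1*, with 16.5, followed by *Rbpj* with 8.01. The receptors lay close together at 5.63 for *Notch1*, 5.20 for *Notch2* and 4.39 for *Notch3*. *Hes5* at 3.34, *Dll1* at 1.27 and *Heyl* at 0.667 were the least abundant, and *Heyl* ranked above only 17.3% of tested genes.

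**Figure D1:**
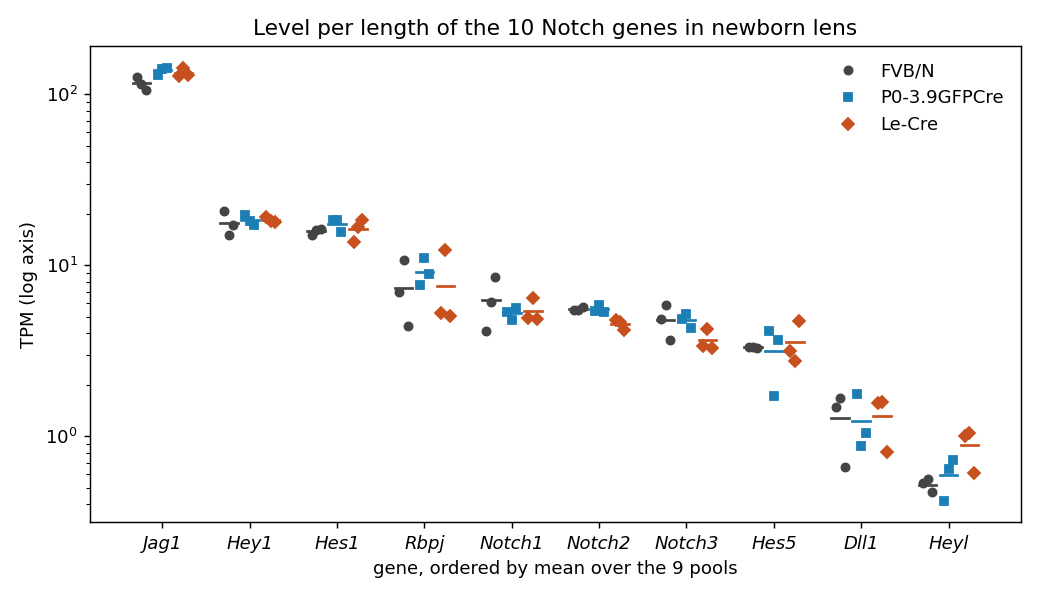
TPM on a log axis for each of the 10 Notch genes in each pool, with circles for *FVB/N*, squares for *P0-3.9GFPCre* and diamonds for *Le-Cre*, and a short line at the mean of the 3 pools of a line. *Jag1* sits between 105 and 143 TPM, and every other gene stays at or below 20.7 TPM.

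Neighbours in this order were compared within pools by an exact two-sided sign-flip permutation test on log2(TPM + 0.1) over the 9 pools, with Benjamini-Hochberg adjustment over the 9 pairs. The order came from the same 9 pools, so the tested values also chose the pairs and their directions. Pools of all 3 lines were treated alike. Of these pairs, 5 were distinguished at an adjusted p of at most 0.05. *Jag1* exceeded *Hey1* by 2.82 ± 0.16 on the log2 scale (SD, n = 9, exact permutation, adjusted p = 0.00879), higher in 9 of 9 pools. *Hes1* exceeded *Rbpj* by 1.11 ± 0.51, *Hes5* exceeded *Dll1* by 1.35 ± 0.60 and *Dll1* exceeded *Heyl* by 0.82 ± 0.55, each in 9 of 9 pools and with the same adjusted p. *Notch2* exceeded *Notch3* by 0.26 ± 0.21 in 8 of 9 pools (n = 9, exact permutation, adjusted p = 0.0141). The pairs *Hey1* and *Hes1*, *Rbpj* and *Notch1*, *Notch1* and *Notch2*, and *Notch3* and *Hes5* did not differ beyond their spread (n = 9, exact permutation, adjusted p = 0.0923, 0.0923, 0.406 and 0.0820). In the pairs with *Notch1*, part of that spread came with the transcript length that RSEM assigned in each pool. The effective length of *Notch1* ranged from 3624 to 7892 bases, that of *Rbpj* from 2287 to 5394 and that of *Dll1* from 837 to 2909, whereas that of *Notch2* stayed at 10450. With 1 fixed length per gene, an alternative chosen after seeing the data, the order was identical and 8 of the 9 pairs were distinguished, all but *Notch1* and *Notch2*. The SD then fell from 0.63 to 0.15 for *Rbpj* and *Notch1* and from 0.31 to 0.16 for *Notch1* and *Notch2*. It was little changed for *Notch3* and *Hes5*, at 0.57 and 0.56, and rose from 0.60 to 0.95 for *Hes5* and *Dll1*.

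The share of each receptor among the 4 Notch receptors was uneven between pools. *Notch1* took 26.9% to 46.4% of the receptor TPM, *Notch2* 28.3% to 35.4%, *Notch3* 20.0% to 32.4% and *Notch4*, the receptor best known from endothelium, 2.83% to 8.41%. The largest and smallest shares of *Notch1* were in *FVB/N* replicates 3 and 1. These pools had nearly the same CPM of *Notch1*, 30.5 and 30.9, but assigned lengths of 3624 and 7892 bases. Among the 4 targets, *Hey1* held 46.9% ± 3.3 and *Hes1* 42.7% ± 3.4 of their summed TPM (SD, n = 9). *Hes5* held 8.63% ± 1.96 and *Heyl* 1.74% ± 0.60. The share of *Hey1* was alike in the lines, with means of 47.1%, 46.4% and 47.3% in *FVB/N*, *P0-3.9GFPCre* and *Le-Cre*.

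None of the 10 genes was called as differentially expressed between any pair of lines. All 10 passed the filter on low counts and entered edgeR's quasi-likelihood test with the 15557 genes, in which a call needed at least 1.5-fold and a Benjamini-Hochberg adjusted p of at most 0.05. In *Le-Cre* against *FVB/N*, 0 of 10 genes were called beside 0.0643% of all tested genes, and 4 of 10 had an unadjusted p under 0.05 beside 7.94%. These were *Notch2* and *Notch3* with lower values and *Jag1* and *Heyl* with higher values in *Le-Cre*. The pools of 3 of these 4 did not overlap between the lines, beside 13.5% of all tested genes. In *P0-3.9GFPCre* against *FVB/N*, 0 of 10 genes were called beside 0.0%, 1 of 10 (*Jag1*) had an unadjusted p under 0.05 beside 6.81%, and 0 of 10 had pools that did not overlap beside 12.0%. In *Le-Cre* against *P0-3.9GFPCre*, 0 of 10 genes were called beside 0.0%, 3 of 10 (*Notch2*, *Notch3* and *Heyl*) had an unadjusted p under 0.05 beside 7.88%, and the pools of the same 3 did not overlap beside 14.1%. The comparisons share pools, so their values for a gene are not independent. DESeq2 called 0 of the 10 genes in each comparison, beside 0.3%, 0.09% and 0.201% of the genes to which it gave an adjusted p. Limma called 0 of the 10, beside 0.0% of all tested genes in each comparison. With so few calls among all genes, a count of 0 among 10 does not set these genes apart. The median log2 fold change of the 10 genes was 0.02, 0.04 and 0.01 in these comparisons, and that of all tested genes was between -0.004 and 0.

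**Figure D2:**
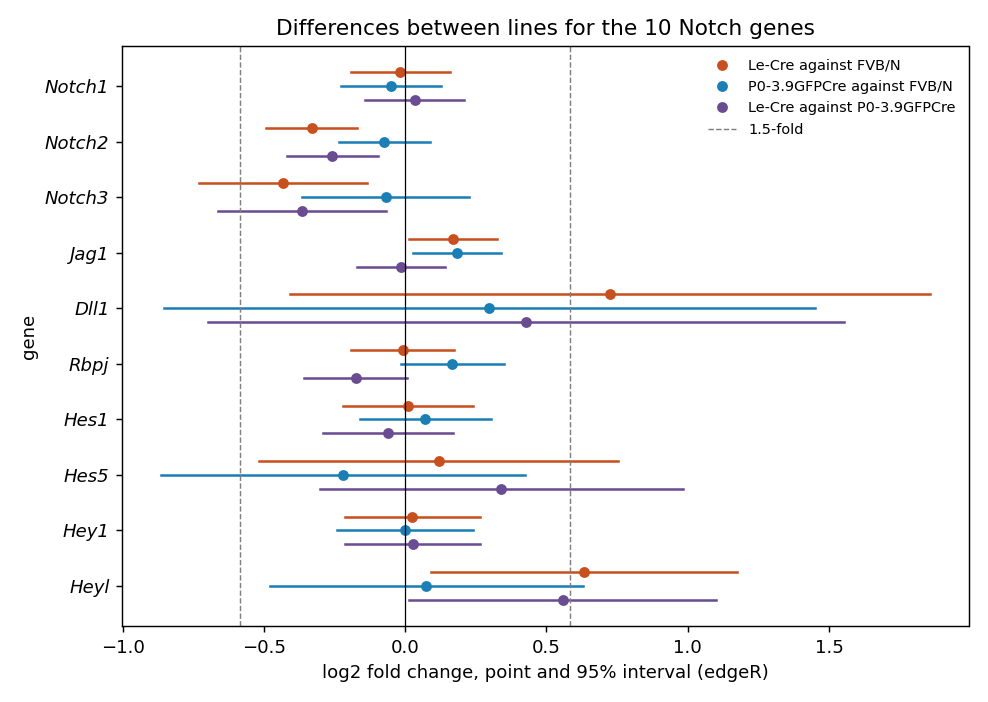
Log2 fold change of each Notch gene (points) with its 95% interval (lines) in the 3 comparisons of lines, with dashed lines at 1.5-fold in either direction. The intervals of *Notch2* in both *Le-Cre* comparisons lie below 0 and within 1.5-fold, and those of *Dll1*, *Hes5* and *Heyl* reach past 1.5-fold.

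The intervals show how large a difference these pools could still hold. In *Le-Cre* against *FVB/N*, the 95% interval of 6 of the 10 genes lay wholly within 1.5-fold in either direction. That number was 7 in *P0-3.9GFPCre* against *FVB/N* and 6 in *Le-Cre* against *P0-3.9GFPCre*. The exceptions were the sparsely expressed *Dll1*, *Hes5* and *Heyl* in each comparison, and *Notch3* in both comparisons with *Le-Cre*. Counting error alone, taken as the square root of the mean count, would give a coefficient of variation of 15.0% for *Dll1*, 12.8% for *Heyl* and 10.6% for *Hes5*, compared with 0.800% for *Jag1*. The measured coefficient of variation of CPM over the 9 pools was 54.4%, 26.6%, 26.4% and 7.83% in these genes. It was lowest in *Notch1*, at 5.53%.

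*Notch2* (chromosome 3, 98013527 to 98150361, plus strand), a receptor needed in lens epithelium, had its lowest values in *Le-Cre* lenses. Its CPM was 54.1, 53.4 and 58.6 in the *FVB/N* pools, 50.3, 55.8 and 51.8 in the *P0-3.9GFPCre* pools, and 47.1, 42.6 and 42.2 in the *Le-Cre* pools. Each *Le-Cre* pool was thus below all 6 pools of the other lines, which overlapped each other. The difference of *Le-Cre* from *FVB/N* was -0.33 ± 0.07 on the log2 scale (SE), a fold of 0.795 with a 95% interval of 0.711 to 0.889, and the gene did not pass adjustment (edgeR, unadjusted p = 0.000854, adjusted p = 0.222). Against *P0-3.9GFPCre* it was -0.26 ± 0.07 (edgeR, adjusted p = 0.429). In *P0-3.9GFPCre* against *FVB/N* it was -0.07 ± 0.07 (edgeR, adjusted p = 0.879). The adjusted p in *Le-Cre* against *FVB/N* ranged from 0.0293 to 0.954 over the alternatives, and under each of them the fold stayed under 1.5.

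*Notch3* (chromosome 17, 32120820 to 32166852, minus strand), a receptor best known from the mural cells that wrap vessels, was lower in the same direction but more variable. The *FVB/N* pools had 36.8, 43.3 and 29.0 CPM, the *P0-3.9GFPCre* pools 34.2, 38.2 and 31.6 CPM, and the *Le-Cre* pools 25.2, 30.0 and 25.6 CPM. The *Le-Cre* pools lay below every *P0-3.9GFPCre* pool but overlapped *FVB/N*, whose replicate 3 was low. *Le-Cre* differed from *FVB/N* by -0.43 ± 0.13 (SE, edgeR, adjusted p = 0.433) and from *P0-3.9GFPCre* by -0.37 ± 0.14 (edgeR, adjusted p = 0.532). When the Y-linked share entered the fit, the former difference was -0.04, and without *FVB/N* replicate 2, the highest pool, it was -0.29. *Notch1* (chromosome 2, 26457903 to 26516663, minus strand), a receptor used in many developing tissues, showed no such pattern. Its CPM was 30.9, 28.1 and 30.5 in *FVB/N*, 27.6, 28.9 and 30.0 in *P0-3.9GFPCre*, and 32.2, 27.6 and 28.6 in *Le-Cre*, with all lines overlapping. The fold of *Le-Cre* over *FVB/N* was 0.988 with a 95% interval of 0.875 to 1.12 (edgeR, adjusted p = 0.981).

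Markers of the cells that could carry these receptors were read beside them. The summed CPM of 4 lens epithelium genes (*Foxe3*, *Pax6*, *Cdh1* and *Pdgfra*) was 459 to 494 in *FVB/N*, 405 to 454 in *P0-3.9GFPCre* and 401 to 427 in *Le-Cre* pools, so the pools of both transgenic lines were below those of *FVB/N*. Its members *Foxe3* and *Pax6* overlapped between all lines. *Pdgfra*, a growth factor receptor of lens epithelium, contributed most of that difference, with 157 to 178 CPM in *FVB/N*, 123 to 150 in *P0-3.9GFPCre* and 123 to 134 in *Le-Cre* pools. The fibre marker *Dnase2b*, a nuclease that degrades fibre DNA, had means of 133, 97.1 and 102 CPM in *FVB/N*, *P0-3.9GFPCre* and *Le-Cre*. Its pools in both transgenic lines were below those of *FVB/N* (edgeR, adjusted p = 0.590 and 0.356). The other fibre genes, *Bfsp1*, *Bfsp2*, *Mip* and *Lim2*, overlapped between all lines. The sum of the 5 fibre genes was 14530 to 14720 CPM in *FVB/N*, 13240 to 14720 in *P0-3.9GFPCre* and 13900 to 14830 in *Le-Cre* pools. The summed CPM of 5 mural cell genes, among them *Rgs5* and *Pdgfrb*, was 28.5 to 36.5 in *FVB/N*, 21.1 to 40.7 in *P0-3.9GFPCre* and 28.0 to 43.5 in *Le-Cre* pools, with all lines overlapping. The part of these cell types in the receptor values was not tested.

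**Figure D3:**
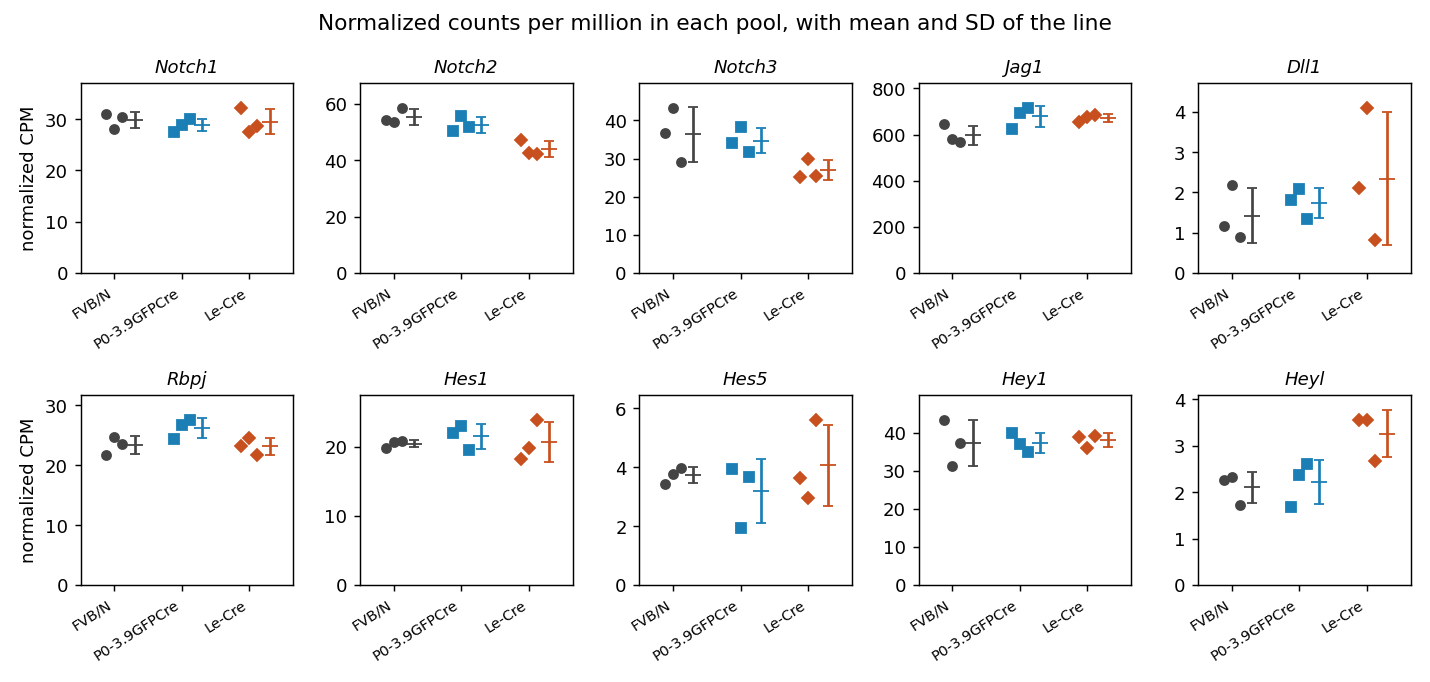
Normalized CPM of the 10 Notch genes, one panel per gene with its own axis from 0, with 1 point per pool and the mean and SD of each line beside the points. The 3 *Le-Cre* pools lie below all other pools for *Notch2* (42.2 to 47.1 CPM) and above all others for *Heyl* (2.67 to 3.56 CPM).

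The ligand *Jag1* (chromosome 2, 137081456 to 137116644, minus strand) had somewhat higher values in both transgenic lines. Its CPM was 644, 579 and 568 in *FVB/N*, 625, 694 and 716 in *P0-3.9GFPCre*, and 654, 674 and 686 in *Le-Cre* pools. All *Le-Cre* pools were above the highest *FVB/N* pool by a small margin, whereas 1 *P0-3.9GFPCre* pool fell within the *FVB/N* range. *Le-Cre* differed from *FVB/N* by 0.17 ± 0.07 on the log2 scale, and *P0-3.9GFPCre* did so by 0.18 ± 0.07 (SE, edgeR, adjusted p = 0.591 and 0.662). The lines differed from each other by -0.02 ± 0.07 (edgeR, adjusted p = 0.983), with the fold of *Le-Cre* over *P0-3.9GFPCre* between 0.889 and 1.10 at 95%.

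*Dll1* (chromosome 17, 15367354 to 15376872, minus strand), a Delta-type ligand that acts in retinal and other neural progenitors, was scarce and uneven. Its CPM was 1.17, 2.19 and 0.901 in *FVB/N*, 1.81, 2.08 and 1.35 in *P0-3.9GFPCre*, and 2.10, 4.10 and 0.814 in *Le-Cre* pools. Both the highest and the lowest of the 9 values were in *Le-Cre*, and all lines overlapped. *Le-Cre* differed from *FVB/N* by 0.72 ± 0.52 (SE, edgeR, adjusted p = 0.797), a value that moved widely with the choices. It was 0.06 without *Le-Cre* replicate 2, 1.12 without *Le-Cre* replicate 3, 0.08 by limma on TPM and 2.02 when the Y-linked share entered the fit, and over all alternatives the adjusted p was at least 0.703. In *P0-3.9GFPCre* against *FVB/N* the difference was 0.30 ± 0.52 (edgeR, adjusted p = 0.936), and it ranged from -0.01 by limma to 1.29 when the Y-linked share entered the fit.

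*Rbpj* (chromosome 5, 53466152 to 53657362, plus strand), the DNA-binding partner of every activated Notch receptor, varied little. It was at 21.8, 24.7 and 23.6 CPM in *FVB/N*, 24.4, 26.6 and 27.6 CPM in *P0-3.9GFPCre*, and 23.3, 24.6 and 21.7 CPM in *Le-Cre* pools. The *P0-3.9GFPCre* values tended to be highest but overlapped both other lines. The fold of *Le-Cre* over *FVB/N* was 0.995 with a 95% interval of 0.877 to 1.13, and that of *P0-3.9GFPCre* over *FVB/N* was 1.12 with an interval of 0.989 to 1.27 (edgeR, adjusted p = 0.994 and 0.755).

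*Hes1* and *Hey1*, the abundant targets, had overlapping values in all lines. *Hes1* (chromosome 16, 30064384 to 30067796, plus strand), a repressor that keeps progenitors undifferentiated, was at 19.9, 20.6 and 20.9 CPM in *FVB/N*, 22.0, 23.0 and 19.5 CPM in *P0-3.9GFPCre*, and 18.3, 19.7 and 23.9 CPM in *Le-Cre* pools. The *Le-Cre* pools spanned the whole range of the series for this gene. The fold of *Le-Cre* over *FVB/N* was 1.01 with a 95% interval of 0.858 to 1.18 (edgeR, adjusted p = 0.993). *Hey1* (chromosome 3, 8663359 to 8667256, minus strand), a related repressor, was at 43.4, 31.2 and 37.3 CPM in *FVB/N*, 40.0, 37.1 and 35.0 CPM in *P0-3.9GFPCre*, and 38.9, 35.9 and 39.3 CPM in *Le-Cre* pools. The *FVB/N* pools held both extremes, and the folds of *Le-Cre* and *P0-3.9GFPCre* over *FVB/N* were 1.02 (0.863 to 1.20) and 0.9998 (0.847 to 1.18), with 95% intervals in parentheses.

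*Hes5* and *Heyl* were the scarce targets. *Hes5* (chromosome 4, 154960923 to 154962371, plus strand), whose upstream window held both RBPJ core matches shown above, was at 3.44, 3.78 and 3.97 CPM in *FVB/N*, 3.95, 1.94 and 3.68 CPM in *P0-3.9GFPCre*, and 3.63, 2.96 and 5.61 CPM in *Le-Cre* pools. The lines overlapped, and the fold of *Le-Cre* over *FVB/N* had a wide 95% interval of 0.699 to 1.69 around 1.09 (edgeR, adjusted p = 0.957). *Heyl* (chromosome 4, 123233556 to 123249875, plus strand), a family member found in vascular smooth muscle, was at 2.27, 2.32 and 1.72 CPM in *FVB/N*, 1.69, 2.37 and 2.60 CPM in *P0-3.9GFPCre*, and 3.56, 3.55 and 2.67 CPM in *Le-Cre* pools. All 3 *Le-Cre* pools were above the 6 others, the nearest by a small margin. The difference from *FVB/N* was 0.63 ± 0.25 on the log2 scale (SE), a fold of 1.55 with a 95% interval of 1.07 to 2.26, and it did not pass adjustment (edgeR, unadjusted p = 0.0260, adjusted p = 0.574). Against *P0-3.9GFPCre* it was 0.56 ± 0.25 (edgeR, adjusted p = 0.618). These values rest on 41 to 100 counts of *Heyl* per pool. On the TPM scale the lines overlapped, with *Le-Cre* replicate 3 at 0.610 below 2 *P0-3.9GFPCre* pools at 0.640 and 0.730. The summed mural cell genes were at 35.7, 36.5 and 28.5 CPM in *FVB/N*, 29.2, 21.1 and 40.7 CPM in *P0-3.9GFPCre*, and 43.5, 40.6 and 28.0 CPM in *Le-Cre* pools. The pool with the least *Heyl* had the smallest mural sum in *FVB/N* and *Le-Cre* but not in *P0-3.9GFPCre*. *Rgs5* was the largest part of that sum, and its members did not move together. *FVB/N* replicate 3, the *FVB/N* pool with the least *Heyl*, had *Rgs5* at 12.7 CPM but the highest *Acta2* of the 9 pools, at 9.21 CPM. The part of mural cells in the *Heyl* values was not tested.

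Of 54 other genes of the pathway, 49 were tested, and edgeR called 0 of them in each comparison, beside 0.0643%, 0.0% and 0.0% of all tested genes. Limma called 0 of 49 beside 0.0% of all genes. DESeq2 gave an adjusted p to 49, 41 and 52 of the 54 in these comparisons and called 0, beside 0.3%, 0.09% and 0.201% of all genes. The 5 left out for low counts were the ligand gene *Dll3*, the ligand-like *Dlk2* and the targets *Hes2*, *Hes3* and *Hes7*, with at most 0.390 CPM in any pool. In *Le-Cre* against *FVB/N*, 3 of 49 had an unadjusted p under 0.05, all with lower values in *Le-Cre*. In *P0-3.9GFPCre* against *FVB/N* the number was 4, with 1 higher and 3 lower, and in *Le-Cre* against *P0-3.9GFPCre* it was 4, with 1 higher and 3 lower. The shares of 6.12%, 8.16% and 8.16% were near the 7.94%, 6.81% and 7.88% of all tested genes. The pools of 7 of 49, or 14.3%, did not overlap in each comparison, near the background of 13.5%, 12.0% and 14.1%. The median log2 fold changes were -0.05, -0.03 and -0.01.

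**Figure D4:**
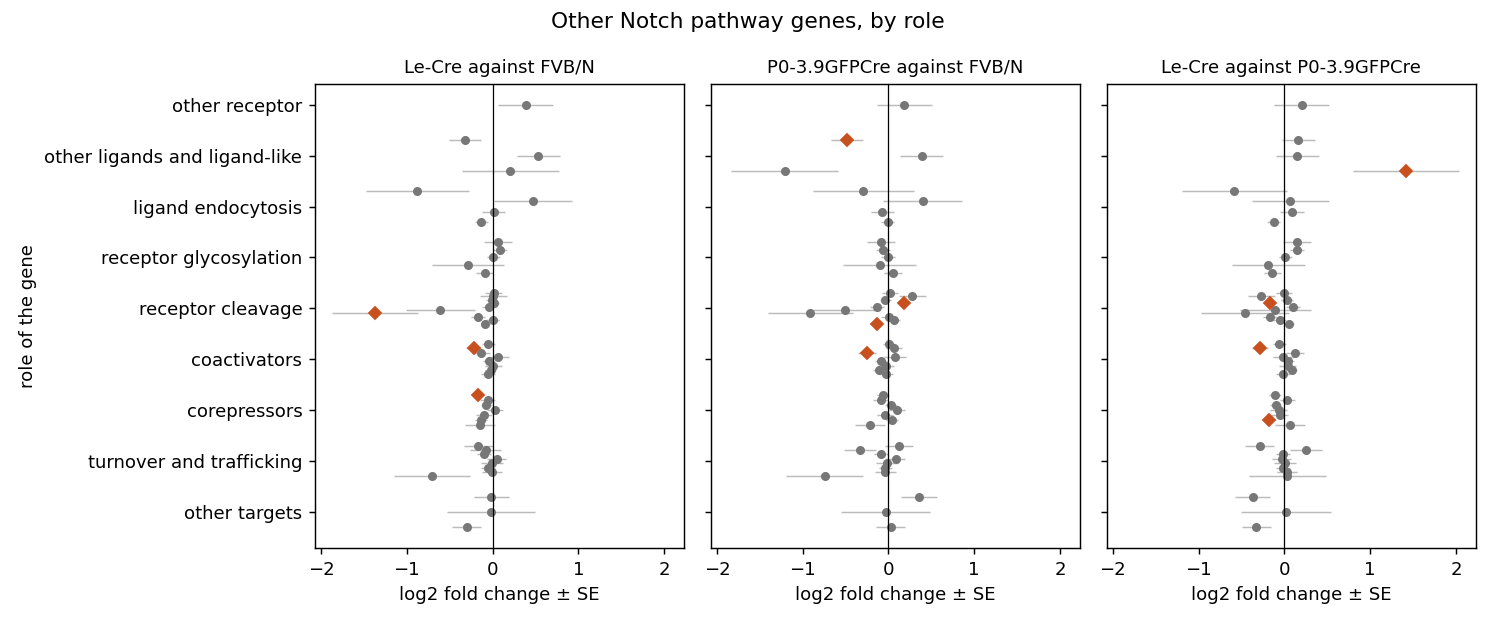
Log2 fold change with SE of the 49 tested other genes of the Notch pathway, grouped by role, in the 3 comparisons. Diamonds mark the 3, 4 and 4 genes with an unadjusted p under 0.05, none of which passed adjustment, and the median of each panel lies between -0.05 and -0.01.

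Levels differed widely among these genes, and the most abundant gene of each role is given by its mean TPM. Among ligand and receptor genes outside the 10, *Jag2*, a second Jagged ligand, had a mean TPM of 1.10 and *Notch4* 0.881. *Mib1*, the ubiquitin ligase that drives endocytosis of bound ligands, had 19.4 and *Poglut1*, which adds glucose to receptors, 27.1. The gamma-secretase subunit gene *Psenen* was highest at 78.0, beside *Adam10*, the protease of the first cut, at 63.9 and the gamma-secretase subunit gene *Ncstn* at 56.7. In the nucleus, the coactivator *Ep300* had 31.1 and the corepressor *Ctbp2* 48.1. *Dtx3*, a Deltex-family gene, led the genes of turnover with 39.1, and *Nrarp*, a feedback inhibitor of Notch, led the further targets with 8.00.

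The 9 pathway genes with an unadjusted p under 0.05 in any comparison differed by log2 fold changes of 0.14 to 1.41 in size. *Ncstn* was at 136, 137 and 138 CPM in *FVB/N*, 143, 162 and 161 CPM in *P0-3.9GFPCre* and 136, 140 and 140 CPM in *Le-Cre* pools. The *P0-3.9GFPCre* pools stood above both other lines, by 0.18 ± 0.06 over *FVB/N* on the log2 scale (SE, edgeR, adjusted p = 0.637), and *Le-Cre* differed from them by -0.17 ± 0.06 (edgeR, adjusted p = 0.532). *Maml3*, a coactivator of the Mastermind family that binds RBPJ and the cut receptor, was at 20.9, 20.7 and 20.8 CPM in *FVB/N*, 19.4, 21.2 and 24.6 CPM in *P0-3.9GFPCre* and 17.1, 17.8 and 18.6 CPM in *Le-Cre* pools. The *Le-Cre* pools were below all others, by -0.22 ± 0.09 from *FVB/N* and -0.29 ± 0.09 from *P0-3.9GFPCre* (SE, edgeR, adjusted p = 0.591 and 0.476). *Spen*, a corepressor, was lower in *Le-Cre* than in *FVB/N* by a log2 fold change of -0.17, and *Ctbp1*, another corepressor, was lower in *Le-Cre* than in *P0-3.9GFPCre* by -0.18. *Jag2*, *Adam10* and *Maml2* were lower in *P0-3.9GFPCre* than in *FVB/N*, at log2 fold changes of -0.48, -0.14 and -0.25. *Dlk1*, a ligand-like gene at 0.123 to 0.859 CPM, was 1.41 higher on the log2 scale in *Le-Cre* than in *P0-3.9GFPCre*. *Aph1b*, a gamma-secretase subunit gene at 0.534 to 3.19 CPM, named after its values were seen, had a log2 fold change of -1.37 in *Le-Cre* against *FVB/N* with pools that overlapped. The adjusted p by edgeR was at least 0.476 for every gene of this group.

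Genes of cell cycle exit and epithelium that are studied together with Notch in the lens were read on the same scale, and edgeR called 0 of 6 in each comparison, beside 0.0643%, 0.0% and 0.0% of all tested genes. *Cdkn1c*, the inhibitor p57 that accompanies cell cycle exit in the lens, was at 1208, 1196 and 1157 CPM in *FVB/N*, 1242, 1167 and 1212 CPM in *P0-3.9GFPCre*, and 1038, 895 and 1089 CPM in *Le-Cre* pools. Each *Le-Cre* pool was below all 6 others. The difference was -0.24 ± 0.07 from *FVB/N* and -0.26 ± 0.07 from *P0-3.9GFPCre* (SE, edgeR, adjusted p = 0.439 and 0.429). *Cdkn1b*, the related inhibitor p27, was at 65.0 to 86.1 CPM over all pools, with overlap between the lines. The cyclin genes *Ccnd1* and *Ccnd2* were at 92.7 to 112 and 235 to 312 CPM, and the *Le-Cre* pools of *Ccnd2* were all above those of *P0-3.9GFPCre*, with a log2 fold change of 0.16 (edgeR, adjusted p = 0.748). *Foxe3*, a transcription factor of lens epithelium, was at 17.7 to 38.4 CPM, and *Cdh1*, which encodes E-cadherin, had *Le-Cre* and *P0-3.9GFPCre* pools all below the lowest *FVB/N* pool with log2 fold changes of -0.14 and -0.10.

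The patterns of *Jag1* and *Hes1* over the 9 pools were set beside those of the 15556 other tested genes, by Pearson's r of log2 CPM and as a description without a test. The 3 genes most like *Jag1* were *Fam175b*, *Dubr* and *Rpa1*, with r of 0.959, 0.951 and 0.948. Those most like *Hes1* were *Ccdc138*, *Zfp677* and *Edem2*, with r of 0.927, 0.919 and 0.918. Among the 10 Notch genes, r with *Jag1* was highest for *Heyl* at 0.551 and lowest for *Notch2* at -0.465, and r with *Hes1* was between -0.554 for *Notch1* and 0.132 for *Notch3*. All these points share the libraries and their depth.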

How the data were processed

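Single-end reads of polyadenylated RNA were trimmed by the authors with Trimmomatic 0.36, aligned to GRCm38 by GSNAP and assigned to genes by RSEM 1.3.0. The deposited expected counts are unnormalized estimates of reads per gene, which divide a read among the genes it matches. The deposited TPM are scaled by RSEM for effective length and depth. The gene annotation and the use of strand in counting are not given in the sources used here. Exons of *Notch1*, *Notch3*, *Dll1* and *Hes5* overlap genes on the opposite strand in GENCODE M21, which also gave the coordinates, and *Notch2* overlaps 1 gene on the same strand. If strand was not used, reads from the bases shared with opposite-strand genes, 2.91% to 31.8% of the exon bases, could not be told apart. For *Notch2*, 5.02% of the exon bases are shared on the same strand, and strand cannot separate those reads. The overlapping genes had mean expected counts of 1.19 for *Hes5*, 1.55 for *Dll1*, 5.34 for *Notch2* and 12.8 for *Notch3*. Those over *Notch1* had 25.9 and 137.

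Expected counts were rounded and tested with edgeR 4.0.16 in R 4.3.3 (filterByExpr, TMM, glmQLFit and glmQLFTest on all 9 pools with a coefficient for each line), with Benjamini-Hochberg adjustment over 15557 genes. The standard error is the absolute log2 fold change over the square root of F. DESeq2 1.42.0, the tool named by the study, and limma 3.58.1 on log2(TPM + 0.1) were alternatives. Others changed the normalization, filter, samples or covariates, or left out 1 pool. The edgeR fit was also run on simulated counts, in which every changed gene differed by more than 1.5-fold. Smaller changes were not simulated. Lines and replicate numbers came from the sample titles, and 1 description carries another number. Pools sharing a number did not deviate together and were not paired.

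The genes and lists were chosen with earlier results of these data known. Named are the 10 Notch genes, pathway genes that were called, or had an unadjusted p under 0.05 and separate pools (up to 5 per comparison), or had the highest TPM of their role, up to 3 genes by TPM of each context or marker list (all of a list of at most 6), and the 3 genes most like *Jag1* and *Hes1*. 1 marker list is not reported here.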

Additional observations from a re-analysis of the deposited data

How the results depend on the processing

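None of the 10 Notch genes and none of the other pathway genes tested were called under any of the 19 alternatives in any of the 3 comparisons. Labels give all lines the same replicate numbers, and the fit with a replicate block called 0 Notch genes in each comparison and changed no call among them. Deviations from the line means correlated at 0.03 on average (range -0.10 to 0.12, 9 pairs) between pools with the same number and at -0.02 (range -0.17 to 0.12, 18 pairs) otherwise, and in all tested genes the block moved the calls of *Le-Cre* against *FVB/N* from 10 to 2. *Notch2* in *Le-Cre* against *FVB/N* had an adjusted p of 0.0293 by DESeq2 and of 0.0494 without the filter on low counts, and *Notch3* 0.0288 without that filter, each under 1.5-fold. Of the 30 log2 fold changes, 15 kept their direction under all 18 alternatives and 15 changed sign in at least 1, in 39 of 540 values. The cause was not tested. In *P0-3.9GFPCre* against *FVB/N*, *Hey1* was at -0.0003 and became 0.00013 by DESeq2, 0.069 by limma, 0.00074 with a mean of at least 10 counts, 0.00033 with only the compared lines and 0.0080 with the replicate block. By limma, *Dll1* became -0.014 and *Notch3* 0.014. With the Y-linked share in the fit, *Notch3* became 0.206 in that comparison, *Rbpj*, *Hey1* and *Hes5* became 0.064, -0.109 and -0.636 in *Le-Cre* against *FVB/N*, and *Notch1* and *Hey1* became -0.0060 and -0.020 in *Le-Cre* against *P0-3.9GFPCre*. Leaving out 1 pool in *Le-Cre* against *FVB/N* gave -0.107 to 0.092 for *Hes1*, -0.087 to 0.032 for *Notch1*, -0.053 to 0.036 for *Rbpj*, -0.086 to 0.152 for *Hey1* and -0.179 to 0.305 for *Hes5*. In *P0-3.9GFPCre* against *FVB/N* it gave -0.056 to 0.243 for *Heyl*, -0.207 to 0.075 for *Notch3*, -0.114 to 0.123 for *Hey1* and -0.403 to 0.036 for *Hes5*. In *Le-Cre* against *P0-3.9GFPCre* it gave -0.244 to 0.823 for *Dll1*, -0.178 to 0.020 for *Hes1*, -0.035 to 0.081 for *Notch1*, -0.070 to 0.027 for *Jag1* and -0.017 to 0.080 for *Hey1*. The number of neighbouring genes distinguished by TPM was 5 of 9 pairs, 8 with 1 fixed length per gene, and 5 to 6 when 1 pool was left out. The widest intervals were those of *Dll1*, which had 18 to 105 counts per pool and a spread between pools of 54.4%, above the 15.0% that counting error alone would give.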
